A study of Mus musculus with 4 samples.

Results

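The genes of the cytosolic ribosomal proteins were followed in bulk stomach RNA of WT and *c-Myc* transgenic mice. Members were every gene whose symbol is Rpl or Rps followed by digits and at most 1 letter, with *Rplp0*, *Rplp1*, *Rplp2* and *Rpsa* added. These were 84 of the 46095 gene symbols in the table, 52 named for the large subunit and 32 for the small subunit. *Rpl29* was treated apart, which left 83 members. Of the 84, 80 are annotated as protein coding and 4 (*Rpl32l*, *Rpl32p*, *Rpl6l* and *Rps4l*) as pseudogenes.

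The stomach samples came from C57BL/6 mice aged 12 weeks, 2 of them WT and 2 *Atp4b-cre; Myc OE* (labelled MYC-KI). Expression of the transgene, which is human *c-Myc*, depends on a Cre that the *Atp4b* promoter drives in the parietal lineage, and the WT mice were littermates of genotype *Myc fl/fl*. The depth was 36152857 counts in WT replicate 1, 30260305 in WT replicate 2, 31350412 in MYC-KI replicate 1 and 41463647 in MYC-KI replicate 2. *Xist*, which is transcribed from the inactive X chromosome, had 17846 counts in WT replicate 2 and 85, 113 and 201 in the other samples, so WT replicate 2 carried a female marker and the other 3 samples did not. The Y-linked gene *Ddx3y* had 5 counts in WT replicate 2, against 1861 in WT replicate 1 and 1941 and 2623 in the MYC-KI samples. *Uty*, *Eif2s3y* and *Kdm5d* were split in the same way. By these markers sex was not balanced between the genotypes.

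Each ribosome joins a large subunit, which forms peptide bonds, to a small subunit, which reads the mRNA, and each subunit assembles from ribosomal RNA and ribosomal proteins in the nucleolus. Genes of ribosomal proteins are transcribed in most cells, and their mRNAs begin with a stretch of pyrimidines (the TOP motif) through which mTOR signaling and the protein LARP1 set their translation. MYC is known as a regulator of ribosome production, and zymogenic chief cells and acid-secreting parietal cells of the stomach make large amounts of protein.

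In the deposited order the gene names and the MYC-KI counts were out of register, so the MYC-KI columns were first matched to the same names in character-code order. This moved each of the 84 members, by 383 to 397 rows. Over the 83 members, Pearson's r between the mean log2(count + 1) of the genotypes was 0.14 in the deposited order and 0.99 after re-sorting. This r runs across genes, which are not independent replicates. All values below are from the re-sorted table unless stated.

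The 83 members together took a larger part of the counts in both MYC-KI samples than in either WT sample. They held 1.317% of all counts in WT replicate 1 (95% Wilson interval 1.313 to 1.321) and 1.229% in WT replicate 2 (1.225 to 1.233). In MYC-KI replicate 1 they held 2.281% (2.276 to 2.286) and in MYC-KI replicate 2 they held 2.546% (2.541 to 2.551). The means were 1.27% ± 0.0623 (SD, n = 2) and 2.41% ± 0.188 (SD, n = 2), a ratio of 1.90. An exact two-sided permutation test over the 4 samples gave p = 0.333, the smallest p that 2 against 2 samples allow. The ratio was 1.89 for large-subunit genes and 1.90 for small-subunit genes, so both subunits moved in nearly the same proportion. In bulk RNA, fewer cells of a type and less RNA per cell cannot be told apart.

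**Figure D1:**
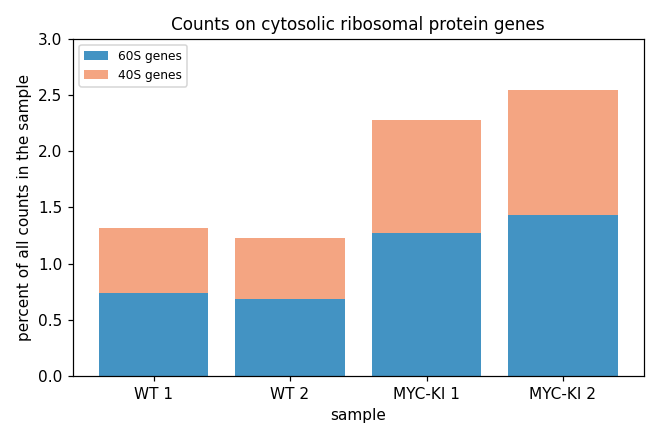
Stacked bars give the percent of all counts in each of the 4 samples that fell on large-subunit (blue) and small-subunit (orange) ribosomal protein genes, without *Rpl29*. The WT samples reached 1.32% and 1.23%, and the MYC-KI samples 2.28% and 2.55%.

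This share also depends on which other transcripts fill the library, and markers of secretory cells moved with it. The 62 cell type marker genes that were looked up held 15.8% and 15.9% of all counts in the WT samples and 3.93% and 3.98% in the MYC-KI samples. With these genes left out of the total, a choice made after the data were seen, the members held 1.57% and 1.46% in WT and 2.37% and 2.65% in MYC-KI, a ratio of 1.66. Of chief cell markers, edgeR called 4 of 5 tested genes lower and none higher, beside 5.08% and 5.65% of all genes tested. The remaining gene had a fitted change above 0. The summed level of the list was 84850 and 80510 CPM (edgeR's depth-scaled counts, after TMM normalization) in WT and 1198 and 1518 in MYC-KI, most of it from the pepsinogen gene *Pgc*. All 7 tested parietal cell markers fell, from summed levels of 12570 and 12630 CPM to 366 and 377 CPM, with the proton pump gene *Atp4a* the most abundant. *Gif*, which had 1776 and 1678 CPM in WT and 101 and 58.5 CPM in MYC-KI, stands in both the chief and the parietal list and is counted in both. All 4 surface mucous cell markers fell, from 44890 and 53560 to 10960 and 17190 CPM, led by *Gkn2*. Transcripts of the gastric cell types were thus abundant in the WT samples. The part of these cell types in the ribosomal protein result was not tested.

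Some of the other marker lists also moved with genotype. Of all 17643 genes tested, edgeR called 5.65% higher and 5.08% lower, the shares that stand beside its counts in each list below. Of 7 tested pancreatic acinar markers 4 fell. All 7 were lower by DESeq2 (beside 1711 of all 17643 genes tested) and at an unadjusted p under 0.05 (beside 2894). Their sum went from 10240 and 8963 to 161 and 182 CPM, but most of the WT level was *Pla2g1b*, and the defining genes *Prss2* and *Cpa1* were at 0 in all samples. Leukocyte markers summed to 242 and 252 CPM in WT and 108 and 93.6 CPM in MYC-KI, led by *Lyz2*, with 3 of 10 tested genes lower (4 by DESeq2) and *Ighm* at 0. Cycling cell markers summed to 288 and 275 CPM against 447 and 378 CPM, led by *Mki67*, with 1 of 6, the cyclin gene *Ccnb1*, higher. All 6 cycling genes lay above WT in both MYC-KI samples, beside 33.3% of all 17643 genes tested. All 6 were also higher at an unadjusted p under 0.05, beside 3130 of all genes tested. DESeq2 called 4 of them higher, beside 1500 of all genes. The part of these cell types in the ribosomal protein result was not tested. Mucous neck cell markers (3 tested, none called, led by *Tff2*) summed to 9971 and 12320 CPM against 19940 and 8784 CPM. Squamous epithelium markers (9 tested, 1 higher by edgeR and 2 by DESeq2, led by *Krt13*) summed to 1863 and 1126 CPM against 903 and 3440 CPM, and smooth muscle markers (6 tested, none called, led by *Myh11*) to 7196 and 4610 CPM against 2357 and 5038 CPM. For the mucous neck and smooth muscle lists edgeR and DESeq2 called 0 genes, and 0 had an unadjusted p under 0.05. The called squamous gene, *Anxa8*, had 6.82 and 4.48 CPM in WT and 141 and 121 CPM in MYC-KI. The sums of these last 3 lists lay on both sides of WT in the MYC-KI samples or overlapped it.

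Gene by gene, the rise was broad and of similar size. Of the 83 members, 80 passed the filter on low counts. The other 3 were *Rpl10l* and *Rpl39l*, at 0 in every sample, and *Rpl32l*, with 3, 2, 5 and 2 counts. Of the 80, 53 were higher in MYC-KI mice at an adjusted p under 0.05 and a change of at least 1.5-fold (edgeR's quasi-likelihood test). Among all 17643 genes tested, 996 (5.65%) were higher by the same rule and 896 (5.08%) lower. No member was lower by edgeR, none was lower at an unadjusted p under 0.05, and DESeq2 called 60 higher and 0 lower, beside 1500 higher and 1711 lower of all 17643 genes. The median log2 fold change of the 80 members was 0.72, with quartiles of 0.64 and 0.85, beside a median of 0.01 and quartiles of -0.40 and 0.39 over all genes tested. The fitted change was above 0 in 79 of the 80, the exception being *Rps4l*. Both MYC-KI samples lay above both WT samples in 77 of the 80, against 33.3% of all genes tested.

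The calls depended on both WT samples. Without WT replicate 1 or without WT replicate 2, edgeR called no gene of the whole table in either direction and so no member, while the median of the members was 0.77 and 0.67. Without MYC-KI replicate 1 the members called higher were 46, beside 781 of all 18580 genes tested, and without MYC-KI replicate 2 they were 37, beside 1064 of 18289. With library sizes in place of TMM normalization the median of all genes moved to 0.23 and that of the members to 0.94. Their distance was 0.71 in both scalings. A change of scaling shifts all genes by nearly the same amount, so this distance could hardly have moved. With library sizes 2272 of all genes were called higher and 739 lower, beside 996 and 896 with TMM. Of the 27 tested members that were not called, 4, *Rpl41* among them, had an adjusted p under 0.05 and a change below the 1.5-fold threshold, and 23 had a larger adjusted p.

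**Figure D2:**
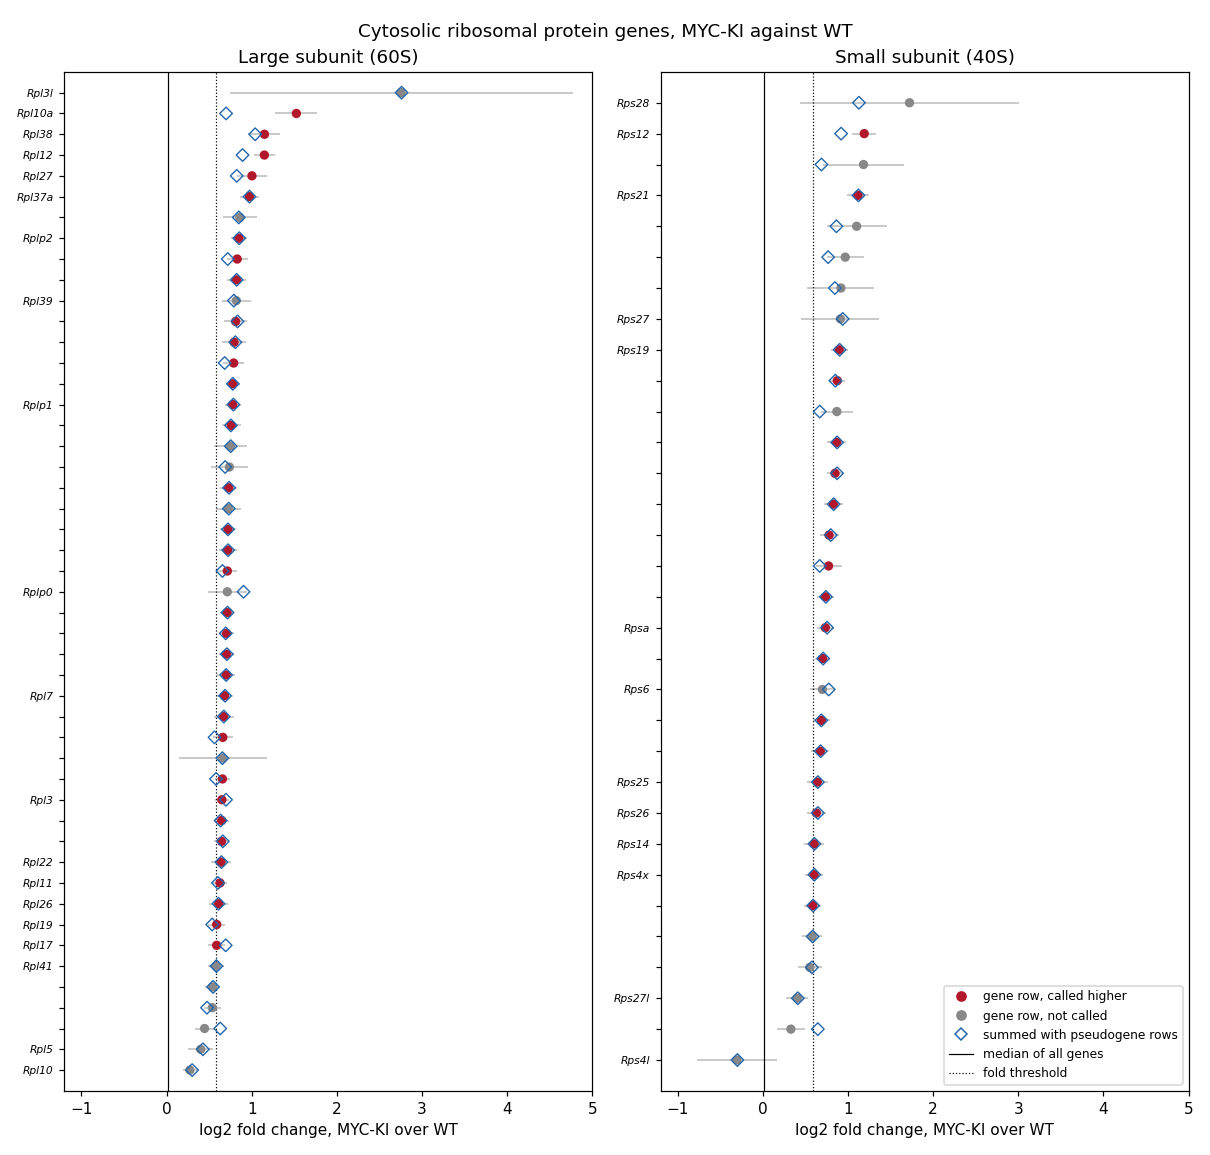
Filled points give the log2 fold change (MYC-KI over WT) of each of the 80 tested members with its standard error, red where called higher and grey where not, and open diamonds the same after each gene was summed with its pseudogene rows, with names only for members described one by one. The median of the members was 0.72, and the vertical line near 0 is the median of all 17643 genes (0.01).

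Of the large subunit, 34 of 48 tested members were called higher, with a median log2 fold change of 0.71. The largest rise among the called was that of *Rpl10a*, the protein of the mobile stalk at the exit side, with 6.85 and 4.84 CPM in WT and 18.5 and 15.2 CPM in MYC-KI (log2 fold change 1.52, standard error 0.25, adjusted p = 0.0349). Both MYC-KI samples lay above both WT samples, but the counts of this row are a small part of those on near-identical copies, as given below. *Rpl38*, whose loss in mice gives patterning defects of the skeleton, had 13.4 and 10.1 CPM in WT and 24.9 and 27.1 CPM in MYC-KI (1.15, standard error 0.19, adjusted p = 0.0351). *Rpl12*, at the base of the stalk that binds elongation factors, had 20.9 and 21.3 CPM against 50.4 and 43.0 CPM (1.15, standard error 0.12, adjusted p = 0.0205). *Rpl27* (1.002, adjusted p = 0.0399) and *Rpl37a* (0.97, adjusted p = 0.0228) followed. *Rpl37a*, which encodes a zinc finger protein, had 93.5 and 86.8 CPM in WT and 163 and 191 CPM in MYC-KI.

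At the lower end of the called large-subunit genes stood *Rpl22*, *Rpl11*, *Rpl26*, *Rpl19* and *Rpl17*. *Rpl22* had 134 and 115 CPM in WT and 183 and 205 CPM in MYC-KI (0.64, adjusted p = 0.0421). *Rpl26*, beside the exit tunnel of the nascent chain, had 214 and 185 CPM against 291 and 318 CPM (0.61, adjusted p = 0.0431). *Rpl19*, which forms a bridge to the small subunit, had 96.8 and 84.9 CPM against 133 and 141 CPM (0.59, adjusted p = 0.0383), and *Rpl17* 31.4 and 31.5 CPM against 44.4 and 50.1 CPM (0.59, adjusted p = 0.0390). These last values lie at the fold threshold, and *Rpl41*, with 260 and 234 CPM in WT and 367 and 373 CPM in MYC-KI, lay just below it (0.58, adjusted p = 0.0344). The smallest fitted change of the large subunit was that of *Rpl10*, an X-linked gene whose protein joins the subunit late in its assembly, with 230 and 222 CPM in WT and 268 and 278 CPM in MYC-KI (0.27, standard error 0.08, adjusted p = 0.0925).

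*Rpl5* and *Rpl11* carry the 5S RNA into the large subunit, and free of the ribosome they bind the p53 inhibitor MDM2. *Rpl11* had 116 and 106 CPM in WT and 170 and 172 CPM in MYC-KI (0.63, standard error 0.08, adjusted p = 0.0275). *Rpl5* had 47.1 and 37.4 CPM in WT and 58.6 and 53.0 CPM in MYC-KI and was not called (0.40, standard error 0.14, adjusted p = 0.137). The difference between the pair was not tested.

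The stalk proteins *Rplp0*, *Rplp1* and *Rplp2* recruit elongation factors to the large subunit. *Rplp1* had 432 and 404 CPM in WT and 697 and 733 CPM in MYC-KI (0.78, standard error 0.09, adjusted p = 0.0233). *Rplp2* had 179 and 163 CPM in WT and 299 and 318 CPM in MYC-KI (0.85, standard error 0.09, adjusted p = 0.0213). *Rplp0* had 947 and 958 CPM in WT and 1236 and 1885 CPM in MYC-KI, and the distance between the MYC-KI samples left it uncalled (0.71, standard error 0.23, adjusted p = 0.109). In MYC-KI replicate 1 the rows of 3 *Rplp0* pseudogenes, *Gm8730*, *Gm9625* and *Gm6278*, held 12037, 2675 and 621 counts, against 431, 172 and 26 in MYC-KI replicate 2 and at most 239, 96 and 7 in WT. Summed with all its copies, *Rplp0* was called (0.90, standard error 0.11, adjusted p = 0.0234).

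Of the small subunit, 19 of 32 tested members were called higher, with a median log2 fold change of 0.75. *Rps12* had 9.45 and 9.25 CPM in WT and 22.6 and 20.1 CPM in MYC-KI (1.19, standard error 0.14, adjusted p = 0.0234). *Rps21* had 69.8 and 59.3 CPM in WT and 130 and 150 CPM in MYC-KI (1.12, standard error 0.13, adjusted p = 0.0228). *Rps19*, a gene mutated in Diamond-Blackfan anemia, had 183 and 165 CPM in WT and 309 and 338 CPM in MYC-KI (0.90, standard error 0.10, adjusted p = 0.0222). In these 3 genes both MYC-KI samples lay above both WT samples.

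Among the smallest called changes of the small subunit were those of *Rps25* (0.64, adjusted p = 0.0475), *Rps26* (0.63, adjusted p = 0.0381), *Rps14* (0.60, adjusted p = 0.0485) and *Rps4x* (0.60, adjusted p = 0.0425). *Rps14*, whose human counterpart is lost in the 5q- syndrome, had 419 and 364 CPM in WT and 560 and 629 CPM in MYC-KI. *Rps26*, also a Diamond-Blackfan gene, had 242 and 230 CPM against 338 and 390 CPM. *Rpsa*, a small-subunit protein also described as a laminin receptor, had 683 and 683 CPM in WT and 1082 and 1189 CPM in MYC-KI (0.73, standard error 0.10, adjusted p = 0.0275). *Rps6*, the substrate of the S6 kinases below mTOR, had 22.9 and 18.6 CPM in WT and 32.6 and 34.9 CPM in MYC-KI, and was not called (0.70, standard error 0.15, adjusted p = 0.0530). The highest fitted value of the small subunit, that of *Rps28* (1.72, standard error 1.29, adjusted p = 0.408), rests on 12, 0, 28 and 19 counts.

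As CPM without TMM factors per kb of coding sequence, the members with the highest level were *Rpl41*, which encodes the smallest ribosomal protein, *Rplp1* and *Rplp0*. *Rpl41* stood at 1751 and 1565 in WT and 2875 and 2910 in MYC-KI, *Rplp1* at 1172 and 1088 against 2204 and 2310, and *Rplp0* at 924 and 929 against 1406 and 2135. Per kb of exon, which includes untranslated sequence, *Rplp1* and *Rplp0* ranked 1 and 2 among the members and *Rpl41* ranked 12.

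Several ribosomal proteins have a paralogue, often of restricted expression. *Rpl3* had 249 and 239 CPM in WT and 378 and 387 CPM in MYC-KI (0.65, adjusted p = 0.0245). Its muscle paralogue *Rpl3l* had 11 and 8 counts in WT against 0 and 186 in MYC-KI, so its value (2.75, standard error 2.02, adjusted p = 0.399) rests on MYC-KI replicate 2 alone. *Rpl10l* and *Rpl39l*, the testis paralogues of *Rpl10* and *Rpl39*, had no counts in any sample, and a count of 0 allows up to 3 counts. *Rpl39*, at the exit tunnel, had 32.5 and 24.7 CPM in WT and 46.8 and 54.1 CPM in MYC-KI (0.82, adjusted p = 0.0527). *Rps27* had 41, 32, 100 and 68 counts (0.91, adjusted p = 0.243), and its p53-inducible paralogue *Rps27l* had 50.7 and 40.9 CPM in WT and 60.4 and 60.9 CPM in MYC-KI (0.41, adjusted p = 0.109).

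*Rps4x* had 518 and 494 CPM in WT and 712 and 822 CPM in MYC-KI, whereas *Rps4l* had 18 to 20 counts in every sample and the smallest fitted value of all members (-0.30, adjusted p = 0.694). *Rpl22l1*, the paralogue of *Rpl22*, had 40.7 and 33.4 CPM in WT and 69.8 and 67.6 CPM in MYC-KI (0.89, standard error 0.12, adjusted p = 0.0287). *Rpl7* had 559 and 527 CPM against 835 and 905 CPM (0.68, adjusted p = 0.0299), and *Rpl7l1* 84.4 and 79.9 CPM against 109 and 105 CPM (0.38, adjusted p = 0.0522).

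Ribosomal protein genes have many processed pseudogenes, and reads of near-identical copies can be split between rows. By sequence, 952 pseudogene rows of the table were assigned to 74 members at 80% identity or more over at least 50% of the pseudogene, 692 of them with Gm names. Another 45 rows that carry a member's name as pseudogenes were added by name. For *Rpl29* and 23 other members, more than 50% of the counts of gene and copies together lay on the pseudogene rows. That percent was 98.8 for *Rps28*, 98.1 for *Rps13*, 92.4 for *Rpl10a* and 78.0 for *Rpl12*. Levels and changes of these rows are therefore uncertain. A single copy held most of them in some genes: *Rpl10a-ps1*, identical to *Rpl10a* where aligned, had 3806 and 3024 counts in WT against 5529 and 8081 in MYC-KI, beside 230, 135, 626 and 680 on *Rpl10a* itself.

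When each member was summed with its copies, a choice made after the data were seen, 61 of 80 members were called higher, beside 5.69% of the 17446 genes then tested. Of these, 49 were called in both ways, 12 were gained and 4 (*Rpl19*, *Rpl31*, *Rpl38* and *Rpl9*) were lost. The lost genes had log2 fold changes of 0.54, 0.56, 1.04 and 0.58 as sums, beside 0.59, 0.66, 1.15 and 0.66 as single rows. *Rpl38* was lost by its adjusted p (0.0548, edgeR), and the others fell just below the fold threshold. The gained genes included *Rps6* (0.77, adjusted p = 0.0282), *Rps7* (0.65, adjusted p = 0.0376) and *Rps28* (1.13, adjusted p = 0.0484). The median of the members was 0.70. Among the 23 members other than *Rpl29* with most counts on copies, the SD of the log2 fold changes over genes was 0.33 for single rows and 0.15 for the sums, and their range narrowed from 0.40 to 1.72 to a range of 0.43 to 1.13. *Rpl10a* moved from 1.52 to 0.70, close to the median. *Rpl30*, with 89.0 and 41.8 CPM in WT and 67.1 and 140 CPM in MYC-KI, overlapped between the genotypes as a single row (standard error 0.51). Its copy *Gm12191* had 1150 and 1661 counts in WT against 3063 and 2363 in MYC-KI, and the sum had a standard error of 0.15 at a log2 fold change of 0.66 (adjusted p = 0.0642).

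*Rpl29* stood apart from all other members as a single row. The gene, which encodes a basic protein of the large subunit and lies at chr9:106429454-106431568 on the plus strand (mm10), had 58 and 40 counts in the WT mice against 5404 and 7873 in the MYC-KI mice, or 1.73 and 1.43 CPM against 159 and 176 CPM. On the log2 scale this row rose by 6.72 (standard error 0.15, adjusted p = 0.00339, edgeR), beside a median of 0.72 for the other members, and it was not called without WT replicate 1 (6.87) or without WT replicate 2 (6.60). Among its 25 copies (23 by sequence and 2 by name alone), the processed pseudogene *Gm13841* (chr5:115801677-115802159, minus strand) had 5751 and 4572 counts in WT against 4533 and 6418 in MYC-KI. *Gm6344* (chr13:55085777-55086259, plus strand) had 10 and 2 counts in WT against 946 and 1336 in MYC-KI. *Rpl29* and all its copies together had 6008 and 4790 counts in WT against 11238 and 16102 in MYC-KI, which the fit gave as 0.99 on the log2 scale (standard error 0.09, adjusted p = 0.0187). Summed with its copies, *Rpl29* thus lay within the range of the other members. The cause of the difference between the single row and the sum was not tested.

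**Figure D3:**
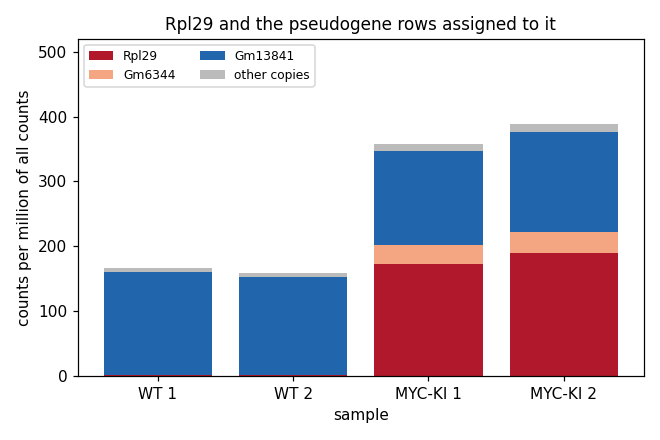
Stacked bars give, for each of the 4 samples, the CPM without TMM factors on *Rpl29*, on its copies *Gm6344* and *Gm13841*, and on its 23 other copies. On this scale *Gm13841* held 159 and 151 in WT and 145 and 155 in MYC-KI, while *Rpl29* held 1.60 and 1.32 in WT and 172 and 190 in MYC-KI.

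Some of the copies differ from *Rpl29* at very few bases, and others at many. Over the 480 coding bases, counted from 1 at the A of the start codon, *Gm13841* differs by 3 substitutions (C72A, C300T and T423C) and *Gm6344* also by 3 (C300T, T423C and G454A). Position 72 is thus where *Gm13841* differs from both other rows, and the 30 coding bases around it are shown for that reason, with the base at position 72 in capitals.
Rpl29: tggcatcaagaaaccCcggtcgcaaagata
Gm6344: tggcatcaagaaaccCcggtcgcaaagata
Gm13841: tggcatcaagaaaccAcggtcgcaaagata
Among the rows with at most 4 substitutions over the full length, those with the base of *Rpl29* at position 72 (*Rpl29*, *Gm6344* and *Gm10709*) had 72 and 47 counts in WT against 6421 and 9272 in MYC-KI. Those with the other base (*Gm13841* and *Gm8210*) had 5868 and 4691 counts in WT against 4659 and 6578 in MYC-KI. Rows with the base of *Rpl29* were nearly empty in both WT samples and filled in both MYC-KI samples. Position 72 was picked by how *Gm13841* differs from *Rpl29* and *Gm6344*, so this grouping largely restates the counts of those rows. *Gm10709* and *Gm8210* did not enter that choice. *Gm10709* had 4 and 5 counts in WT against 71 and 63 in MYC-KI, and *Gm8210* had 117 and 119 against 126 and 160. *Gm8210* has the same 3 substitutions as *Gm13841*, and reads of near-identical copies can be split between rows. Neither row is thus independent of the rows used for the choice. The base carried by the reads was not examined, since only counts were used.

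Promoters of 61 members were found in the RefSeq table (GRCm38.p6, 300 bases from 250 before the start, 73 promoters), and *Rpl29* had no entry. Starts are those of the annotation and were not measured in these samples, so shares at the exact start base depend on where it was placed. The start base was C with pyrimidines in the next 4 bases in 14 of the 61 (23.0%), beside 3.01% of the 27025 genes of the table and 0 of 69 mitochondrial ribosomal protein genes. Such a start lay within 5 bases in 47.5% of the members, 21.2% of all genes and 24.6% of the mitochondrial set. CTTTC stood at the start base itself in 2 (3.28%, beside 0.167%), and anywhere on either strand in 50 (82.0%, beside 60.6%). CGGAAG, searched on both strands like the following motifs, was found in 41 (67.2%, beside 18.8%), and CCATNTT in 19 (31.1%, beside 18.2%). Both were also frequent in the mitochondrial set, CGGAAG at 56.5% and CCATNTT at 33.3%. TATAA was found in 18 (29.5%, beside 28.0%). CACGTG, which MYC can bind, was found in 6 (9.84%, beside 8.09% of all genes), namely *Rpl13a*, *Rpl14*, *Rpl19*, *Rpl23*, *Rpl34* and *Rps19*. All 6 were called higher, as were 40 of the 61 genes with a promoter, of which 18 were tested and not called. A start base C with pyrimidines in the next 4 bases was found in 7 of these 40 (17.5%) and in 6 of the 18 (33.3%), and neither split was tested. A match says only that these letters lie in the window.

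The 30 bases around the start are shown for 4 members with a pyrimidine start, to let the shared feature be seen. The first 5 bases from the annotated start are in capitals. *Rpl38* (chr11:114668565-114668594, plus strand) and *Rplp2* (chr7:141447636-141447665, plus strand) were called higher as single rows, and *Rps6* (chr4:86857353-86857382, minus strand) and *Rpl15* (chr14:18270972-18271001, minus strand) were not. Summed with their copies, *Rps6* and *Rpl15* were called and *Rpl38* was not (log2 fold change 1.04, adjusted p = 0.0548, edgeR). The differences between these genes were not tested.
Rpl38: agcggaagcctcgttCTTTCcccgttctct
Rplp2: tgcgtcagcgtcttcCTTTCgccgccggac
Rps6: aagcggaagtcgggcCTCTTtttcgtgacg
Rpl15: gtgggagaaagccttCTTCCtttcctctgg
A pair of further windows shows CACGTG, in capitals, where it lay nearest to a start, at *Rpl23* (chr11:97782425-97782454, minus strand) and *Rpl19* (chr11:98026679-98026708, plus strand).
Rpl23: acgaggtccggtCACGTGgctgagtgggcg
Rpl19: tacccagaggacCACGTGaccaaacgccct
*Rpl23* was called higher, with 74.6 and 72.4 CPM in WT and 110 and 120 CPM in MYC-KI (0.64, adjusted p = 0.0267).

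With *Rpl29* included and *Rpl32p*, which had no annotated position, left out, members lie on the X chromosome and on every autosome except chromosome 19. There were 14 on chromosome 7 and 7 each on chromosomes 9 (*Rpl29* among them), 11 and 17. The 4 X-linked members are *Rpl10*, *Rpl36a*, *Rpl39* and *Rps4x*. In each of them the 2 WT samples, of which 1 carried the female marker, lay below both MYC-KI samples. The same held for 77 of the 80 tested members and for 33.3% of all genes tested, so it was not particular to the X-linked members.

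Of a list of ribosomal proteins and relatives that the name rule leaves out, which also holds the binding protein *Rps19bp1*, 11 were tested, 2 were higher (*Rps3a1* and *Rpl22l1*, beside 5.65% of all genes tested) and none lower (beside 5.08%), with a median log2 fold change of 0.49. *Rps3a1*, a small-subunit protein, had 358 and 323 CPM in WT and 542 and 581 CPM in MYC-KI (0.72, adjusted p = 0.0287), and *Rack1*, the scaffold on the small subunit, 235 and 226 CPM against 304 and 356 CPM (0.52, adjusted p = 0.0530). DESeq2 called 4 of these 11 higher and 0 lower, and 0 were lower at an unadjusted p under 0.05.

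Of 20 factors of elongation, termination and the nascent chain, 5 were higher and none lower, beside the same 5.65% and 5.08% of all genes, with a median of 0.53, and none was lower at an unadjusted p under 0.05 or by DESeq2. *Eef1a1*, which delivers tRNA to the ribosome, had 4972 and 4989 CPM in WT and 7097 and 7827 CPM in MYC-KI (0.58, adjusted p = 0.0568). *Eef2*, the translocation factor, had 2424 and 2412 CPM against 3473 and 3854 CPM (0.60, adjusted p = 0.0462), and the poly(A)-binding protein gene *Pabpc1* 667 and 747 CPM against 1434 and 1371 CPM (0.99, adjusted p = 0.0212). The mRNA of *Larp1*, which binds pyrimidine starts, had a log2 fold change of 0.44 (adjusted p = 0.0410), below the 1.5-fold threshold.

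Of 60 tested factors of ribosome assembly and RNA polymerase I, 46 were higher and none lower, again beside 5.65% and 5.08% of all genes, with a median of 0.95, and DESeq2 called 48 higher and 0 lower, with 0 lower at an unadjusted p under 0.05. *Npm1*, a nucleolar chaperone, had 141 and 151 CPM in WT and 428 and 427 CPM in MYC-KI (1.56, standard error 0.09, adjusted p = 0.0102). *Npm1*, *Ncl* (1.28, adjusted p = 0.0180) and *Mybbp1a* (1.23, adjusted p = 0.0161) were the 3 genes with the highest mean counts, and *Rrp1b* had the largest value (1.81, adjusted p = 0.0306). *Ubtf*, which encodes an activator of RNA polymerase I, had 126 and 128 CPM in WT and 144 and 140 CPM in MYC-KI and was not called (0.16, adjusted p = 0.212). *Taf1b* had the only negative value (-0.18, adjusted p = 0.607). Of 77 tested mitochondrial ribosomal proteins, 5 were higher (6.49%, beside 5.65% of all genes) and none lower, with a median of 0.29, and *Mrpl12*, the gene with the highest CPM, at 0.56 (adjusted p = 0.0363). Their values ran from -1.38 for *Mrpl40* to 1.497 for *Mrpl23*, neither of them called, and 1 gene was lower at an unadjusted p under 0.05 and 0 by DESeq2. The differences between these lists and the members were not tested.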

How the data were processed

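The authors deposited 1 table of raw counts per gene symbol, 46095 symbols in 4 samples, not normalized. HISAT2 and mm10 are named in the submitters' processing notes, and the counting tool and annotation are not given in the sources used here. Nothing states whether the counting handled reads that match several copies. The MYC-KI columns were matched to the names in character-code order. The whole table was fitted in edgeR 4.0.16 (R 4.3.3) with TMM factors, filterByExpr on genotype, the quasi-likelihood F test and Benjamini-Hochberg adjustment, and a gene was called when its adjusted p was below 0.05 and its log2 fold change beyond 0.585 in either direction. A standard error is the size of the log2 fold change over the root of its F statistic. Alternatives were DESeq2 1.42.0, its size factors, library sizes, TMM factors without the members, other filters and thresholds, the replicate block, leaving out each sample, the deposited order, and sums with pseudogene rows. The test was also run on simulated counts, which were set to vary less between samples than the data do. That run therefore does not show how often the test finds real changes here. Annotation was GENCODE M21, pseudogenes were aligned with blastn, and promoters came from RefSeq.

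Named members were *Rpl29*, the 10 largest and 10 smallest called changes, the 3 highest levels per kb of coding sequence, the stalk genes, *Rpsa*, *Rps6*, *Rpl5*, *Rpl11*, 7 paralogue pairs, and the extremes of each subunit. Some genes that these rules name are not reported here. Genes of the other lists were named from the 3 highest mean counts and the extremes. *Rpl30*, *Rps7*, *Rps13*, *Rpl15*, *Rpl23*, *Larp1* and *Ubtf*, the pseudogene rows and members named for a count were singled out after their values were seen. Members and lists were chosen with earlier results of these data known. Samples of a genotype are taken as separate mice from their labels. Intervals and floors cover counting error only.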

Additional observations from a re-analysis of the deposited data

How the results depend on the processing

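The number of members called depended on the samples and on some settings. Beside 53 members called higher, DESeq2, the size factors of DESeq2, library sizes, TMM factors without the members, both other filters, no fold threshold and both kinds of pseudogene sums called 49 to 69, and none of these called a member lower. The 69 came with library sizes, where 2272 of all 17643 genes were called higher. With an absolute log2 fold change above 1 the number was 6. With the replicate block it was 0, beside 27 genes higher and 87 lower in the whole table. The replicate numbers only name the samples: the correlation of the replicate differences was 0.07 over 17643 genes. Leaving out 1 sample gave 0 to 46 members higher, 0 lower, a median log2 fold change of 0.66 to 0.78 and a difference in the percent of counts of 1.01 to 1.27 points. The lone sample left is then assumed to vary like the other genotype. *Rpl29* lay between 6.60 and 6.87 in these fits and was not called without either WT sample.

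Library sizes moved the median of the members to 0.94. The difference in the percent of counts was 1.14 points. It was 1.41 with the pseudogene rows assigned by sequence and those added by name together, and 1.27 with only the rows named for pseudogenes. With the names as deposited, 12 members were higher and 59 lower, beside 9422 and 9158 of all 22083 genes tested, the median was -3.49 and the difference in percent was -0.887. In that order a name carries the MYC-KI counts of another row, and 25 of 33 named members changed sign: *Rpl38* -3.49, *Rpl12* -3.12, *Rps21* -0.73, *Rpl27* -10.57, *Rps19* -15.53, *Rps25* -6.60, *Rpl22* -1.19, *Rps26* -6.07, *Rpl26* -8.18, *Rps14* -12.00, *Rps4x* -11.74, *Rpl19* -1.58, *Rpl41* -2.997, *Rplp1* -2.22, *Rplp0* -3.70, *Rplp2* -0.066, *Rpsa* -6.60, *Rpl5* -13.49, *Rpl3* -4.32, *Rpl10* -7.27, *Rpl39* -12.93, *Rps27* -1.11, *Rps27l* -1.73, *Rpl7* -4.03 and *Rps4l* 3.97. The cause of the other differences was not tested. Of the named members that had a value, none changed sign under any other alternative. Values were held for 32 of the 33 without MYC-KI replicate 2 and for 31 with at least 10 counts in every sample. *Rpl3l* had 11 and 8 counts in WT and 0 in MYC-KI replicate 1, so the sign of its change rests on MYC-KI replicate 2. At this depth *Rpl3l*, *Rps28* and *Rps4l*, with 0 to 186 counts per sample, had standard errors of 0.47 to 2.02, and a change of the size of the members' median was not detectable in them.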

Other observations

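The rows of pseudogenes of the members were also tested one by one. Of those that passed the filter on low counts, 197 in all, 29 (14.7%, beside 5.65% of all genes tested) were higher and none lower by edgeR, with 2 lower at an unadjusted p under 0.05, and DESeq2 called 52 higher and 0 lower. Their median log2 fold change was 0.66, beside 0.72 for the members. *Rps7* and its copy *Gm6472* split unevenly within a genotype: *Rps7* had 7325 and 6327 counts in the WT samples, and *Gm6472* 1947 and 588.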
